A study of Homo sapiens with 9 samples.

Results

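The kidney lineage transcription factors PAX2, PAX8, HNF4A, HNF4G, LHX1, EMX2, WT1 and GATA3 were followed in A498 cells, an established human line of clear cell renal cell carcinoma (ccRCC). The 8 genes were found by their names in a count table of 27673 genes, and each held a single row. A498 cells had received lentivirus carrying a non-targeting control short hairpin RNA (shControl), a hairpin against BMAL1 (shBMAL1) or a hairpin against ARNT (shARNT), with 3 libraries per group and 9 in all. All groups, shControl included, carried a pLKO.1 hairpin vector and were selected in puromycin at 2.5 µg/mL and then kept at 1.25 µg/mL. Each target was represented by 1 hairpin label in a pool of selected cells, and no uninfected cells were among the groups. The study's methods also list an independent BMAL1 hairpin, and the labels do not say which was used. The protein ARNT pairs with hypoxia-inducible factors and BMAL1 pairs with CLOCK to drive the circadian clock, and the study asked how far each contributes to HIF2α-driven transcription in ccRCC.

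These factors act at successive steps of kidney formation. PAX2, PAX8, LHX1 and EMX2 are needed in the intermediate mesoderm, the nephric duct and the early nephron, WT1 acts in nephron progenitors and later in podocytes, and GATA3 acts in the duct and the collecting duct. HNF4A and its paralog HNF4G are nuclear receptors, and HNF4A drives genes of the maturing proximal tubule, the segment from which ccRCC is thought to arise. PAX8 is retained by most renal carcinomas and serves as a diagnostic stain for them.

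Library totals ranged from 35269857 to 36099083 counts, so the libraries were of even depth. The scaling factors that edgeR fits to library composition spanned 0.932 to 0.944 for shControl, 0.961 to 0.972 for shBMAL1 and 1.10 to 1.11 for shARNT. Levels are given as CPM, the counts of a gene relative to the scaled library total in units of 1e6. The targeted genes were low where the labels name them. ARNT was at 50.5 ± 2.24 CPM in shControl and 9.47 ± 0.432 in shARNT (SD, n = 3), and BMAL1, listed as ARNTL, was at 16.3 ± 0.395 CPM in shControl and 5.02 ± 0.789 in shBMAL1. The other partner moved as well: ARNT was at 32.3 ± 1.52 CPM in shBMAL1 and ARNTL at 23.9 ± 1.31 CPM in shARNT. Differences between groups were tested across 15551 genes in edgeR (quasi-likelihood F-test). A gene was called when its p, adjusted by the Benjamini-Hochberg method, was under 0.1, the false discovery rate the study used. The labels call the samples biological replicates but do not say whether each came from its own infection, so the p-values measure the spread between these libraries.

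Of the 8 factors, 6 were detected in A498 cells and 2 were not. HNF4A, PAX8 and LHX1 exceeded 10 CPM in every shControl library. PAX2 lay between 9.19 and 11.1 CPM, HNF4G between 3.80 and 4.36 CPM, and GATA3 between 0.729 and 1.17 CPM in the shControl libraries. WT1 (chromosome 11, 32409321 to 32457110, minus strand, GRCh37) had 1, 3 and 2 counts in shControl, 3, 1 and 2 in shBMAL1, and 0, 2 and 1 in shARNT. EMX2 (chromosome 10, 119301956 to 119309057, plus strand) had 0 counts in all 9 libraries. Neither exceeded a floor of 3 counts, which corresponded to 0.0756 to 0.0911 CPM depending on the library, so no fold change is given for them. A difference in WT1 or EMX2 was not detectable at this depth, and this floor covers counting error alone.

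Transcripts on the opposite strand of the 2 undetected factors were not detected either, with WT1-AS at 0 in every library and EMX2OS at 0 to 2 counts. Most other transcripts near the factors were as low, with HNF4A-AS1 (LOC101927219) at 0 to 3 counts, R3HDML and GATA3-AS1 at 0 to 2 and MIR3646 at 0 to 1, so that only PAX8-AS1 and AATF, described with PAX8 and LHX1, were measured there. The other PAX, GATA, LHX and EMX genes and their LDB and ZFPM cofactors were partly detected: of 24 such genes, 11 passed the filter on low counts, and 8 did not exceed 3 counts in any library.

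HNF4A was the most abundant of the factors in shControl and showed the largest change among them. Its gene lies on chromosome 20 from 42984339 to 43061485 on the plus strand (GRCh37). HNF4A had 10055, 10114 and 9972 counts in the shControl libraries, 4880, 4877 and 4692 in shBMAL1, and 763, 680 and 585 in shARNT. The 3 groups were fully separated, with shBMAL1 between the others. Mean levels were 303.7 ± 3.04 CPM in shControl, 140.7 ± 2.49 in shBMAL1 and 17.1 ± 2.26 in shARNT (SD, n = 3).

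In shARNT, HNF4A retained 5.62% of its shControl level, with a log2 change of -4.15 ± 0.0643 (SE), and an adjusted p of 1.62e-21 (edgeR). Its fall was larger in size than the change of 98.9% of the tested genes and ranked 137 from the lowest of 15551. In shBMAL1, HNF4A retained 46.3% (log2 fold change -1.11 ± 0.0541, adjusted p = 8.88e-13, edgeR), a change larger in size than that of 91.6% of genes. Compared directly, shARNT lay at -3.04 ± 0.0633 relative to shBMAL1 in log2 units (adjusted p = 1.41e-19, edgeR), so the fall with the ARNT hairpin exceeded that with the BMAL1 hairpin. These rankings are to be read against broad changes. Between shARNT and shControl 81.8% of all tested genes were called, with 40.5% higher and 41.3% lower in shARNT. Between shBMAL1 and shControl the share was 63.3%, with 31.9% higher and 31.5% lower in shBMAL1. Between shARNT and shBMAL1 it was 81.2%, with 40.1% higher and 41.1% lower in shARNT.

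HNF4A is transcribed from an upstream promoter, known as P2, and a downstream promoter, known as P1, which is the form typical of adult kidney and liver. The table gives a single value per gene, so the 2 promoters cannot be told apart. Both are shown because HNF4A changed most of the factors and because the depleted proteins bind known DNA letters. BMAL1 with CLOCK binds the E-box CACGTG, and ARNT with the hypoxia-inducible factors binds the hypoxia response core ACGTG or GCGTG. The sequences are from RefSeq (GRCh38.p14) and end at the base before the annotated start. Capitals would mark an E-box or a hypoxia core on either strand, and neither window held a match.
HNF4A upstream promoter, chr20:44355449-44355698, plus strand: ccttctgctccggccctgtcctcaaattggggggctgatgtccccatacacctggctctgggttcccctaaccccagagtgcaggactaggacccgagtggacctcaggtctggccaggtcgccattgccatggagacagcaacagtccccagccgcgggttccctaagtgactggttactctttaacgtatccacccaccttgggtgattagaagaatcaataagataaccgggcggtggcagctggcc
HNF4A downstream promoter, chr20:44400989-44401238, plus strand: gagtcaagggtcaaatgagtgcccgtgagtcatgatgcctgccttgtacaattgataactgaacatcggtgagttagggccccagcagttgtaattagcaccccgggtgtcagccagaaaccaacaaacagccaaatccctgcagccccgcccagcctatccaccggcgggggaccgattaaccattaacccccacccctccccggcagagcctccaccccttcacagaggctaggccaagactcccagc

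Among 16 windows of 6 of the factors, the E-box, which itself contains the hypoxia core, was found in 1, and the hypoxia core in 7, both strands searched. Each window ran from 250 bases before to 50 bases after a start. Of all 35116 promoter windows of this length, 7.26% held the E-box and 48.4% the hypoxia core. Windows of LHX1 and HNF4G were not used here. These matches describe letters in short windows and say nothing of binding in A498 cells.

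PAX8 moved in the opposite direction from HNF4A. The gene lies on chromosome 2 from 113973574 to 114036498 on the minus strand. PAX8 had 1124, 1225 and 1221 counts in shControl, 1283, 1376 and 1523 in shBMAL1, and 3791, 3901 and 4232 in shARNT. Every shARNT library exceeded every other library, and the shBMAL1 libraries lay narrowly above shControl on the CPM scale, from 37.5 to 44.8 against 33.8 to 37.2 CPM.

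Mean PAX8 levels were 35.98 ± 1.92 CPM in shControl, 40.8 ± 3.69 in shBMAL1 and 100.3 ± 5.65 in shARNT (SD, n = 3). PAX8 rose 2.79-fold in shARNT (log2 fold change 1.48 ± 0.0640, adjusted p = 1.99e-14, edgeR), more than 83.4% of genes changed in either direction. In shBMAL1 it rose 1.13-fold (0.18 ± 0.0662 on the log2 scale, adjusted p = 0.0257, edgeR). That call rested on single libraries: without shControl replicate 1 the log2 fold change was 0.14 (adjusted p = 0.118) and without shBMAL1 replicate 3 it was 0.11 (adjusted p = 0.176). The direct contrast gave a PAX8 level 2.46-fold higher in shARNT than in shBMAL1 (log2 1.30 ± 0.0633, adjusted p = 1.35e-13, edgeR).

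PAX8 overlaps PAX8-AS1 (listed as LOC654433; chromosome 2, 113968998 to 114034158, plus strand), an antisense RNA that shares 1651 exonic bases with it. PAX8-AS1 had 56, 45 and 108 counts in shControl, 75, 65 and 74 in shBMAL1, and 263, 193 and 217 in shARNT. Its log2 level was 1.43 ± 0.225 higher in shARNT than in shControl (adjusted p = 8.79e-06, edgeR). Whether the counting used strand was not stated, so reads in the shared bases cannot be assigned to PAX8 or to its antisense RNA. PAX8 had 11.3 to 27.2 counts per count of PAX8-AS1 over the 9 libraries. The promoter window of PAX8 is shown as the counterpart to those of HNF4A. It held no E-box and no hypoxia core.
PAX8 promoter, chr2:113278922-113279171, minus strand: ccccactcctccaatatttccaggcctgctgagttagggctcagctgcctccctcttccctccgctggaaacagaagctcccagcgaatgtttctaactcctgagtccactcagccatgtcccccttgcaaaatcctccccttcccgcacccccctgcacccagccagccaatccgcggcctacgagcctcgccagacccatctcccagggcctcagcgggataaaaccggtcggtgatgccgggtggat

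**Figure D1:**
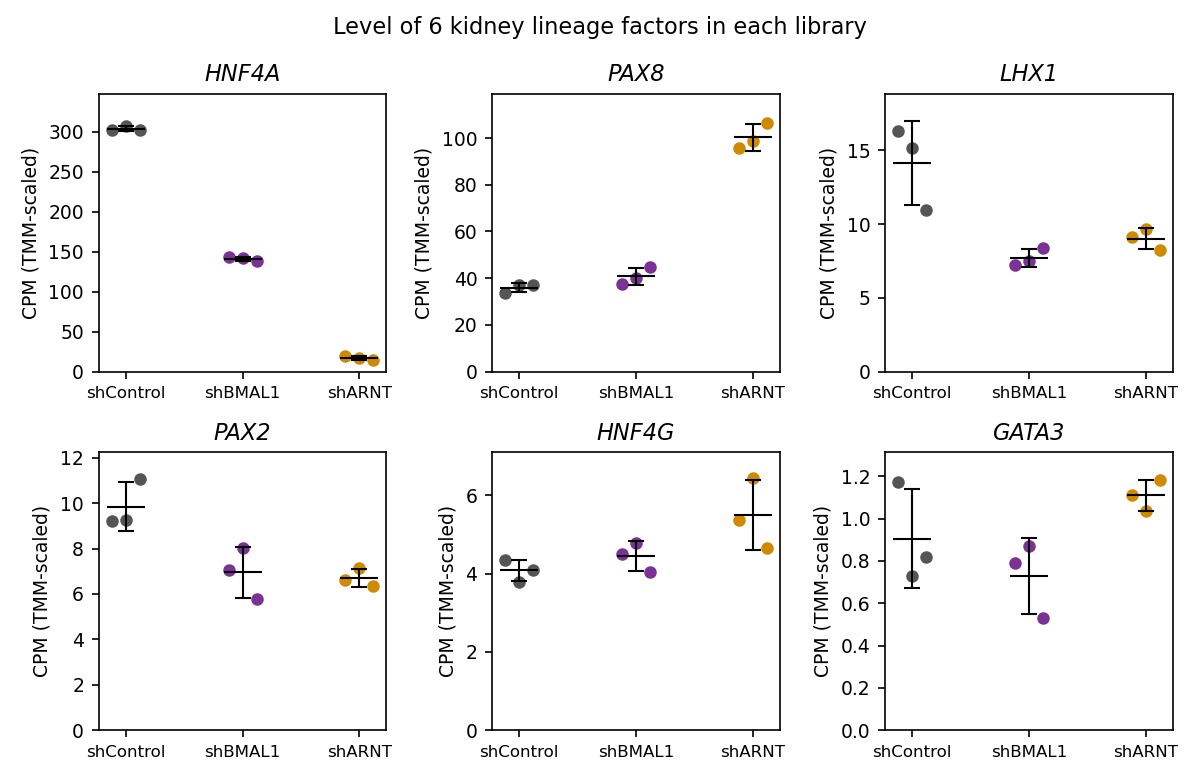
Level of the 6 detected factors in each library, in CPM on linear axes that start at 0. Points are libraries, horizontal bars are group means and error bars are 1 SD (n = 3); HNF4A falls from a mean of 303.7 CPM in shControl to 17.1 CPM in shARNT, and PAX8 rises from 35.98 to 100.3 CPM.

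PAX2, the paralog of PAX8, did not follow it. PAX2 (chromosome 10, 102495153 to 102589701, plus strand) had 306, 305 and 366 counts in shControl, 241, 276 and 197 in shBMAL1, and 262, 283 and 252 in shARNT. Every shControl library lay above every depleted library, and the depleted groups overlapped each other. On the log2 scale PAX2 fell by 0.55 ± 0.121 with the ARNT hairpin (adjusted p = 3.49e-04, edgeR) and by 0.50 ± 0.123 with the BMAL1 hairpin (adjusted p = 0.00158, edgeR). Between the depletions the log2 difference was -0.05, with a 95% interval of -0.31 to 0.21 (adjusted p = 0.712, edgeR). In shControl there were 3.34 to 4.02 counts of PAX8 per count of PAX2, and in shARNT 13.8 to 16.8.

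LHX1, a LIM homeodomain factor of the nephric duct and the forming nephron, also fell with both hairpins. LHX1 (chromosome 17, 35294084 to 35301912, plus strand) had 543, 499 and 362 counts in shControl, 247, 258 and 285 in shBMAL1, and 361, 382 and 327 in shARNT. Here shControl replicate 3 lay below the other control libraries, at 10.96 CPM against 15.2 and 16.3 CPM, yet above all depleted libraries. On the log2 scale LHX1 fell by 0.88 ± 0.126 in shBMAL1 (adjusted p = 5.7e-06, edgeR) and by 0.65 ± 0.123 in shARNT (adjusted p = 7.05e-05, edgeR). The point estimate was thus lower in shBMAL1, but the direct contrast gave a log2 difference of 0.23 with a 95% interval of -0.04 to 0.49 (adjusted p = 0.114, edgeR). Over the alternative fits the adjusted p of this LHX1 difference ranged from 0.00639 with library sizes alone (0.42) to 0.287 without shARNT replicate 2 (0.17). AATF, the next gene downstream on the same strand, was 0.35 ± 0.0460 higher in shBMAL1 and 0.22 ± 0.0459 higher in shARNT on the log2 scale.

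HNF4G is a paralog of HNF4A that is known to bind similar sites. HNF4G (chromosome 8, 76320149 to 76479069, plus strand) had 145, 125 and 135 counts in shControl, 154, 165 and 137 in shBMAL1, and 213, 255 and 185 in shARNT. The shARNT libraries lay above shControl, whereas shBMAL1 overlapped both. On the log2 scale HNF4G rose by 0.43 ± 0.142 with the ARNT hairpin (adjusted p = 0.00953, edgeR), and its log2 difference in shBMAL1 was 0.12 with a 95% interval of -0.18 to 0.43 (adjusted p = 0.497, edgeR). The direct contrast was 0.31 ± 0.140 (adjusted p = 0.0521, edgeR), and it was not called without shBMAL1 replicate 3 (0.24, adjusted p = 0.172) or without shARNT replicate 2 (0.18, adjusted p = 0.288).

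GATA3 was near the lower end of what could be tested. GATA3 (chromosome 10, 8087341 to 8117161, plus strand) had 39, 24 and 27 counts in shControl, 27, 30 and 18 in shBMAL1, and 44, 41 and 47 in shARNT. The control libraries overlapped both depleted groups on the CPM scale. Its log2 difference from shControl was 0.29 in shARNT (95% interval -0.30 to 0.88, adjusted p = 0.349, edgeR) and -0.31 in shBMAL1 (95% interval -0.94 to 0.32, adjusted p = 0.397, edgeR). GATA3 was called higher in shARNT than in shBMAL1 (0.60 ± 0.289, adjusted p = 0.0638, edgeR), although its 95% interval, from -0.0008 to 1.21, just reached 0. The call was lost with DESeq2 (adjusted p = 0.136) and without shBMAL1 replicate 3 (0.41, adjusted p = 0.232), shARNT replicate 1 (0.60, adjusted p = 0.108) or shARNT replicate 3 (0.56, adjusted p = 0.139). With library sizes alone GATA3 was also called in shARNT against shControl (0.53, adjusted p = 0.0932).

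**Figure D2:**
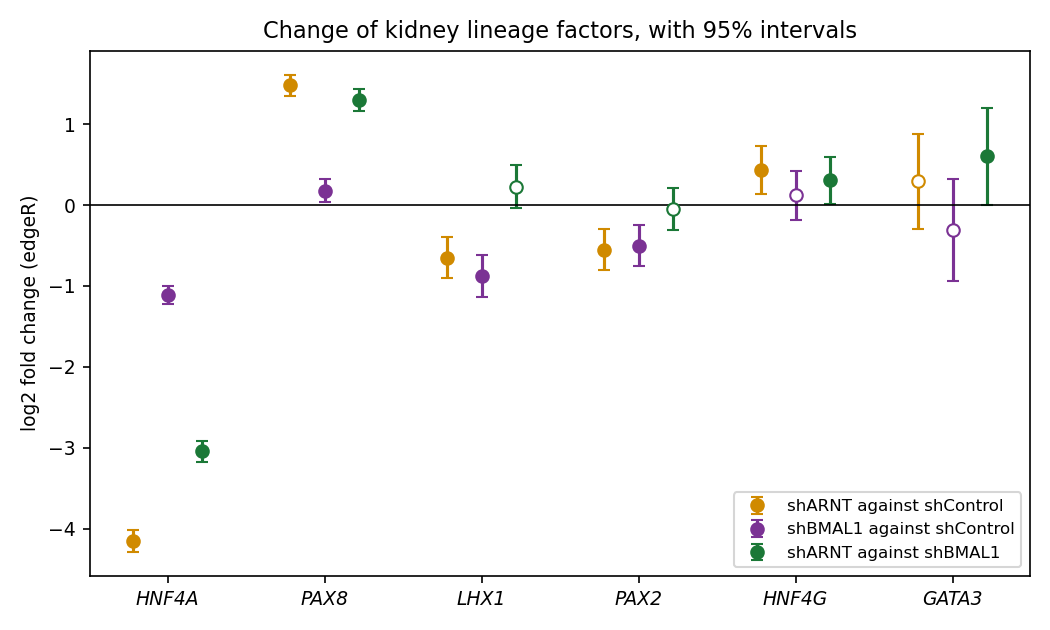
Log2 fold change of the 6 detected factors in the 3 contrasts (edgeR), with 95% intervals; filled circles were called at an adjusted p under 0.1 and open circles were not. HNF4A lies at -4.15 in shARNT and -1.11 in shBMAL1 against shControl, and PAX8 at 1.48 and 0.18.

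Over the 6 tested factors, 5 were called in shARNT against shControl, with PAX8 and HNF4G higher and HNF4A, LHX1 and PAX2 lower. In shBMAL1 against shControl 4 were called, PAX8 higher and HNF4A, LHX1 and PAX2 lower. In the direct contrast 4 were called, with PAX8, HNF4G and GATA3 higher in shARNT and HNF4A lower. Set beside the 81.8%, 63.3% and 81.2% of all genes called in these contrasts, these counts are near the background. The median log2 fold change of the 6 factors was -0.13 in shARNT and -0.41 in shBMAL1, where that of all tested genes was -0.01 and -0.00. Both depletions were compared with the same shControl libraries, so that a shared direction is not independent.

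The order of the factors was read from CPM per kilobase of the longest annotated transcript. In shControl it was HNF4A at 64.1 ± 0.641, PAX8 at 8.67 ± 0.463, LHX1 at 4.13 ± 0.822, PAX2 at 2.32 ± 0.253, HNF4G at 0.971 ± 0.0665 and GATA3 at 0.294 ± 0.0760 CPM per kilobase (SD, n = 3). No neighbours in this order overlapped, and the same order held in shBMAL1, again without overlap. In shARNT PAX8 came first at 24.2 ± 1.36 CPM per kilobase, followed by HNF4A at 3.60 ± 0.478, LHX1 at 2.63 ± 0.209, PAX2 at 1.58 ± 0.0970, HNF4G at 1.31 ± 0.214 and GATA3 at 0.360 ± 0.0239. PAX2 and HNF4G overlapped in shARNT. The isoforms expressed are unknown, and with all annotated exons as the length the shARNT order was PAX8 at 13.6, LHX1 at 1.84 and HNF4A at 1.68 CPM per kilobase, the last pair overlapping, and PAX2 and HNF4G overlapped in shBMAL1 as well.

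The exchange of the leading factor was also seen within each library, where scaling between libraries plays no part. There were 8.95, 8.26 and 8.17 counts of HNF4A per count of PAX8 in shControl and 3.80, 3.54 and 3.08 in shBMAL1. In shARNT there were instead 4.97, 5.74 and 7.23 counts of PAX8 per count of HNF4A.

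**Figure D3:**
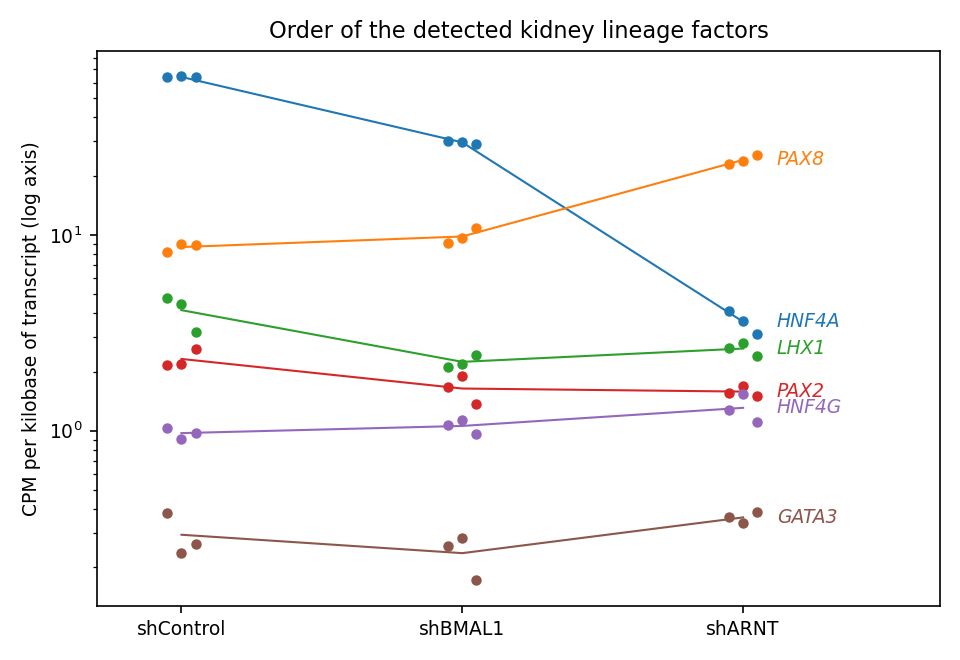
CPM per kilobase of the longest annotated transcript for the 6 detected factors, on a logarithmic axis. Points are libraries and lines join group means; HNF4A leads in shControl (64.1) and shBMAL1 (29.7), and PAX8 leads in shARNT (24.2).

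Genes known as HNF4 targets were examined next, from a list of 21. Of these, 7 were tested and 11 did not exceed 3 counts in any library, among them the apolipoprotein genes APOB and APOC3. Between shARNT and shControl 5 of the 7 were lower in shARNT and 1 higher, with a median log2 fold change of -1.64, where 81.8% of all genes were called and 41.3% were lower. In shBMAL1 against shControl 2 were lower and 2 higher, with a median of -0.23, beside 63.3% of all genes called. SERPINA1, which encodes the protease inhibitor alpha-1-antitrypsin, had 8454, 8404 and 7747 counts in shControl, 2780, 2476 and 2620 in shBMAL1, and 204, 160 and 170 in shARNT. Like HNF4A, SERPINA1 was at its lowest in shARNT and between the other groups in shBMAL1. The log2 fold change of SERPINA1 was -5.78 ± 0.0754 with the ARNT hairpin (adjusted p = 1.15e-22, edgeR) and -1.69 ± 0.0559 with the BMAL1 hairpin (adjusted p = 2.74e-15, edgeR).

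The remaining HNF4 targets varied in how far apart the depletions lay. APOH, a plasma apolipoprotein, was at 9.95 ± 0.144 CPM in shControl, 7.95 ± 0.848 in shBMAL1 and 0.707 ± 0.262 in shARNT. On the log2 scale APOH fell by 3.81 in shARNT and by 0.32 in shBMAL1 (adjusted p = 0.0404, edgeR). CYP2J2, a cytochrome P450 that oxidises arachidonic acid, fell by 2.81 in shARNT and rose by 0.28 in shBMAL1 (adjusted p = 0.0972, edgeR). Directly compared, SERPINA1, APOH and CYP2J2 were all lower in shARNT than in shBMAL1, with log2 differences from -3.09 (CYP2J2) to -4.09 (SERPINA1). Of the other tested targets, APOM was 0.34 higher in shARNT (adjusted p = 0.0388, edgeR), TF was 0.38 lower (adjusted p = 0.0639, edgeR) and MTTP was not called (-0.25, adjusted p = 0.348, edgeR). In shBMAL1, where HNF4A fell, MTTP, the microsomal lipid transfer protein, rose by 0.92 (adjusted p = 0.00169, edgeR), and its log2 difference between shARNT and shBMAL1 was -1.17 (adjusted p = 9.53e-05, edgeR). In the same direct contrast APOM went the other way (0.41, adjusted p = 0.0142, edgeR) and TF was not called (-0.09, adjusted p = 0.663, edgeR). APOM, TF and MTTP were named after their values were seen, as were the cell type markers named below.

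Regulators of tubule segments were represented by 25 genes, of which 14 were tested and all 14 were called in shARNT against shControl, 5 higher and 9 lower (median log2 fold change -0.46), beside 81.8% of all genes called. In shBMAL1 against shControl 5 were higher and 4 lower (median 0.06), beside 63.3% of all genes. NR1H4, the bile acid receptor FXR, was at 83.9 ± 4.27 CPM in shControl, 65.4 ± 3.92 in shBMAL1 and 18.9 ± 0.190 in shARNT, a fall of 2.15 and 0.36 on the log2 scale in shARNT and shBMAL1. Like HNF4A, it was lowest in shARNT and intermediate in shBMAL1. ELF3, an epithelial ETS factor, went the way of PAX8: it was at 94.9 ± 4.03 CPM in shControl, 111.4 ± 2.48 in shBMAL1 and 279.4 ± 16.8 in shARNT, a rise of 1.56 and 0.23. CUX1, a homeobox factor, fell by 1.20 in shARNT and rose by 0.18 in shBMAL1. All of these values passed the test (largest adjusted p = 0.00788, edgeR).

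Regulators of nephron progenitors held 23 genes, and 16 were tested. In shARNT against shControl 5 were higher and 9 lower (median log2 fold change -0.33), and in shBMAL1 against shControl 6 were higher and 5 lower (median 0.20). Over all genes 81.8% and 63.3% were called in these contrasts, so these counts are near the background. SIX4, a homeobox partner of the EYA proteins, rose by 2.04 in shARNT and by 0.62 in shBMAL1 on the log2 scale, from 2.63 ± 0.292 CPM in shControl. EYA1, the coactivator that SIX4 binds, fell by 3.17 in shARNT, where its libraries held 2 to 13 counts against 49 to 75 in shControl, and its log2 difference in shBMAL1 was -0.50 (adjusted p = 0.153, edgeR). FOXC2, a forkhead factor of early kidney mesenchyme, fell by 1.80 in shARNT and by 0.48 in shBMAL1.

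Partners and targets of PAX2 and PAX8 numbered 14, and 7 were tested. In shARNT against shControl 2 were higher and 4 lower (median log2 fold change -0.28), and in shBMAL1 against shControl 2 were higher and 4 lower (median -0.14), again beside 81.8% and 63.3% of all genes called. CP, which encodes the copper-carrying ferroxidase ceruloplasmin, was at 3187 ± 110.8 CPM in shControl, 4469 ± 75.3 in shBMAL1 and 342.5 ± 16.0 in shARNT, a fall of 3.22 with the ARNT hairpin and a rise of 0.49 with the BMAL1 hairpin on the log2 scale. CDH16, the kidney-specific cadherin, likewise fell by 1.33 in shARNT and rose by 1.55 in shBMAL1. TG, the thyroid hormone precursor and a PAX8 target in thyroid, rose by 0.88 in shARNT and fell by 0.84 in shBMAL1, from 4.53 ± 0.465 CPM in shControl. CCND1, which encodes cyclin D1, fell by 1.14 and 0.43. The partners and targets named here moved in both directions in shARNT, where PAX8 was higher and PAX2 lower.

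Among the relatives and cofactors of the 8 factors, 2 of 11 tested genes were higher and 5 lower in shARNT against shControl (median log2 fold change -0.84), and 1 was higher and 1 lower in shBMAL1 against shControl (median -0.19). The shares of all genes called were 81.8% and 63.3%. GATA6, a GATA factor of endoderm and mesoderm, fell by 1.25 in shARNT, from 18.3 ± 0.259 CPM in shControl to 7.67 ± 1.68. In shBMAL1 GATA6 was instead 0.21 higher than in shControl on the log2 scale (adjusted p = 0.0975, edgeR). LHX8 and LHX2, LIM homeodomain relatives of LHX1, fell by 1.63 and 1.32 in shARNT, and their log2 differences in shBMAL1 were -0.15 (adjusted p = 0.367, edgeR) and -0.10 (adjusted p = 0.58, edgeR). LDB1, the cofactor that LIM homeodomain proteins bind, rose by 0.59 in shARNT and fell by 0.28 in shBMAL1.

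Partners and targets of WT1 were measured even though WT1 itself was not detectable. Of 11 genes 10 were tested, 6 higher and 3 lower in shARNT against shControl (median log2 fold change 0.34), and 5 higher and 3 lower in shBMAL1 against shControl (median 0.14), where 81.8% and 63.3% of all genes were called. AREG, an EGF receptor ligand, was at 1.52 ± 0.324 CPM in shControl, 47.8 ± 3.89 in shBMAL1 and 2.35 ± 0.156 in shARNT, and rose by 4.97 in shBMAL1 and 0.62 in shARNT. AREG has a near-identical copy in this annotation, so its counts are uncertain. CDKN1A, the cell cycle inhibitor p21, rose by 1.06 in shBMAL1 and by 1.32 in shARNT. SPRY1, an inhibitor of growth factor signalling, rose by 1.54 and 0.38 in the same groups, and WTAP, a WT1-binding subunit of the RNA methyltransferase complex, by 0.39 and 0.35.

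**Figure D4:**
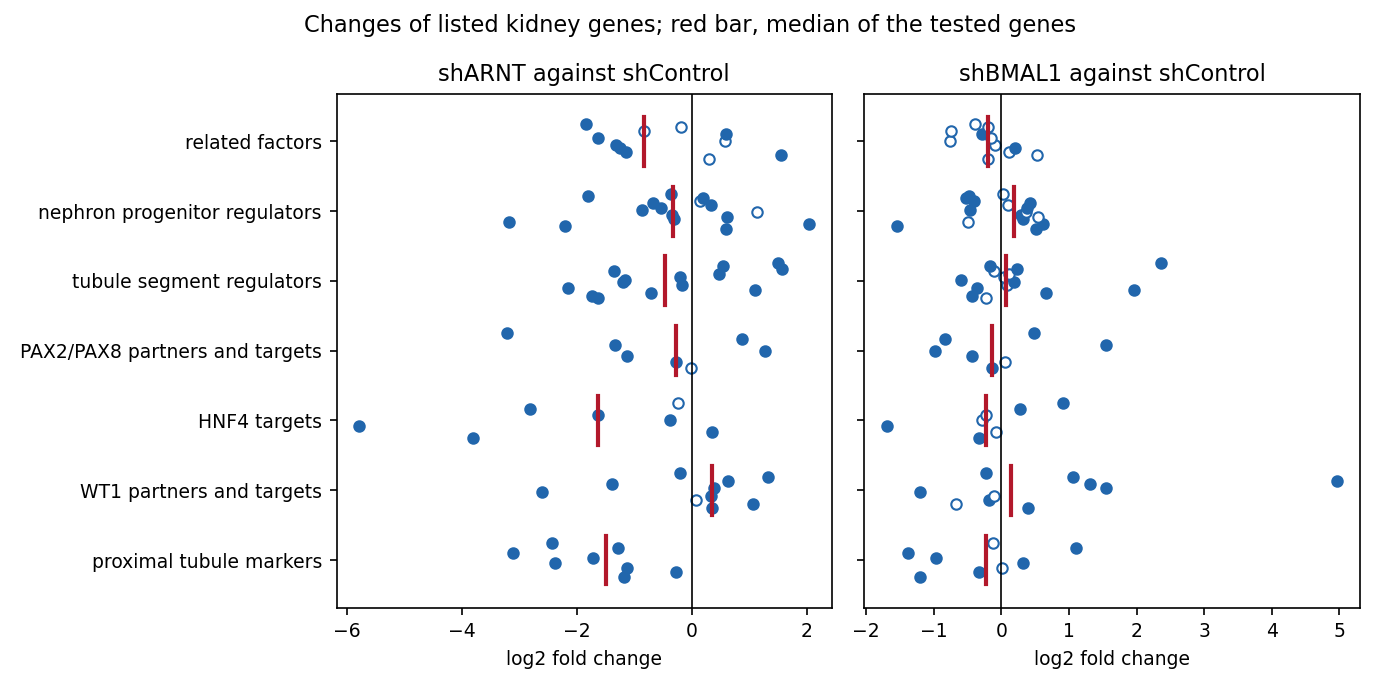
Log2 fold change (edgeR) of each tested gene of the 6 gene lists and of the proximal tubule markers, in shARNT (left) and shBMAL1 (right) against shControl; filled points were called at an adjusted p under 0.1, open points were not, and red bars are medians. The median of the HNF4 targets is -1.64 in shARNT and -0.23 in shBMAL1, and all 8 proximal tubule markers lie below 0 in shARNT; the horizontal axes of the 2 panels differ.

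Cell type markers were read beside these results. Of 12 proximal tubule markers 8 were tested, and LRP2, SLC22A6 and SLC22A8 were at 0 in every library. Others were present, with shControl means of 113.2 CPM for GGT1, 21.3 for SLC5A2, 1.995 for CUBN and 0.887 for AQP1. All 8 tested markers were lower in shARNT against shControl, where 41.3% of all genes were called lower. In shBMAL1 against shControl ANPEP and VCAM1 were higher and CUBN, SLC5A2, GGT1 and MME lower. Their summed level lay at 2163 to 2200 CPM for shControl, 2708 to 2726 for shBMAL1 and 471.3 to 493.7 for shARNT. Most of the sum was ANPEP, which encodes a brush border aminopeptidase, at means of 1745, 2187 and 336.9 CPM in the same order. Their part in the fall of HNF4A was not tested, and in bulk RNA fewer cells of a type and less RNA per cell cannot be told apart.

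Markers of kidney carcinoma were all tested, 7 of 7, and 6 were lower and 0 higher with each hairpin against shControl, where 41.3% (shARNT) and 31.5% (shBMAL1) of all genes were called lower. The sum spanned 7919 to 7978 CPM for shControl, 5811 to 6281 for shBMAL1 and 2108 to 2267 for shARNT. In shControl most of it was VIM, the intermediate filament vimentin, at means of 5974, 4309 and 812.1 CPM in the same order. NDUFA4L2 and EPCAM of this list held only 10 to 16 counts in the shControl libraries. The marker not called was KRT18 in shARNT (-0.007, adjusted p = 0.872, edgeR) and EPCAM in shBMAL1 (-0.49, adjusted p = 0.454, edgeR). Some other lineages were nearly absent. No marker of the loop of Henle and distal nephron (5) or of endothelium (4) passed the filter, and neither list exceeded 0.412 CPM in sum in any library. Collecting duct markers, where GATA3 acts, summed to 9.39 to 10.4 CPM for shControl, 25.7 to 27.3 for shBMAL1 and 6.27 to 6.59 for shARNT, with AQP2 at 0 throughout. The tested collecting duct markers did not move together. AQP3 was at means of 5.36, 15.7 and 1.09 CPM in the same order. SCNN1A was called higher with both hairpins, by 0.39 in shARNT and 1.34 in shBMAL1 on the log2 scale. SCNN1G was called lower in shARNT (-2.48) and was not called in shBMAL1. Podocyte markers, where WT1 acts, summed to 806.8 to 821.7, 744.2 to 784.5 and 45.8 to 51.1 CPM in the same order, nearly all of it SYNPO.

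The markers of leukocytes, stroma, thyroid and liver completed the check. Leukocyte markers summed to 1786 to 1905, 1753 to 1865 and 135.5 to 148.4 CPM in shControl, shBMAL1 and shARNT, almost all of it the lysosomal protein gene CD68, with CD3E and MS4A1 at 0. Stromal markers summed to 231.6 to 244.9, 34.2 to 37.3 and 40.7 to 50.7 CPM, nearly all of it the collagen gene COL1A1. Thyroid markers, relevant because PAX8 also acts in thyroid, summed to 4.03 to 4.95, 2.38 to 3.04 and 6.92 to 9.60 CPM, and TG alone was tested. Liver markers, relevant because HNF4A also acts in liver, summed to 238.9 to 258.4, 74.7 to 84.4 and 5.69 to 6.39 CPM, mostly SERPINA1, which the HNF4 target list holds as well.

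The genes most alike in pattern were found by Pearson correlation of log2 CPM over the 9 libraries among 11223 genes. HNF4A was most like RTKN (r = 0.9995) and ABCC6 (r = 0.9987), and PAX8 most like CEBPB (r = 0.9994) and YARS2 (r = 0.9984). Such values were common: 1371 genes exceeded 0.95 with HNF4A and 1347 with PAX8, since the 3 groups alone set most of the pattern. ABCC6 has near-identical pseudogene copies, so its counts are uncertain. The weaker patterns had few matches. LHX1 was most like SLPI (r = 0.970) and CENPK (r = 0.961), PAX2 like DEPDC7 (r = 0.961) and SCAPER (r = 0.942), HNF4G like GOSR1 (r = 0.956) and GPATCH11 (r = 0.948), and GATA3 like ALKBH8 (r = 0.927) and LOC101927061 (r = 0.919). Pearson r takes no account of the size of a change. In shARNT against shControl RTKN fell by 1.70 on the log2 scale where HNF4A fell by 4.15, and CEBPB rose by 2.07 where PAX8 rose by 1.48. The libraries share groups and hairpins, and these correlations are descriptions of pattern only.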

How the data were processed

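RNA of 9 A498 samples, 3 per group, was sequenced by the study as paired-end reads. Per the study's methods, the authors aligned to GRCh37 with SeqMan NGen and exported counts with ArrayStar, whereas the submitters' processing notes name hg38, STAR and DESeq2. Which applies to the table, and whether strand was used in counting, are not given in the sources used here. The deposited values are estimated counts per gene, not normalized; a value of 0.05 stood for no reads and was set to 0. Values were rounded to whole numbers, and rows of 43 repeated names were summed. Replicates differed by more than sampling noise, so none were merged.

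All libraries entered 1 fit in edgeR 4.0.16 (R 4.3.3; TMM scaling, filterByExpr, 15551 genes, Benjamini-Hochberg adjusted p under 0.1), with group as the factor; SE is the log2 fold change divided by the square root of F. The code was tested on simulated data. Alternatives included DESeq2 1.42.0, other scaling and filters, and leaving out each library. Gene positions are from GENCODE lifted to GRCh37. The 8 factors and all gene lists were chosen with earlier results of these data known. From each list the text names the 4 tested genes with the smallest adjusted p against shControl, for each detected factor the 2 genes most like it, and transcripts within 5000 bases of a factor; other genes were named after their values were seen. Some genes that this rule selects are not reported here.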

Additional observations from a re-analysis of the deposited data

Results flagged for a closer look

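The effects of the ARNT and BMAL1 hairpins differed for 4 of the 6 tested factors by the direct edgeR contrast of shARNT with shBMAL1, which uses no control library in the difference. The difference of the log2 effects was -3.04 for HNF4A and 1.30 for PAX8, each with 3 of 3 shARNT libraries on one side of all shBMAL1 libraries. It was 0.31 for HNF4G, where the groups overlapped, and 0.60 for GATA3. The calls for HNF4G and GATA3 did not hold in every leave-one-out fit, and 81.2% of all genes were called in this contrast.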

How the results depend on the processing

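Each contrast was recomputed with other scaling, filters, tools and samples. For the 6 tested factors, 284 of the recomputed results kept their direction and side of the threshold, 8 lost a call, 9 gained one and 2 turned direction. With a minimum fold change of 1.5, HNF4A, PAX8 and LHX1 stayed called in shARNT against shControl, and HNF4A and LHX1 in shBMAL1 against shControl. In the direct contrast HNF4A, PAX8 and GATA3 stayed called. The share of all genes called at this minimum is not reported here, so these calls are not set against a background. With the size factors of DESeq2 in edgeR, 1 relative of the factors was called in shBMAL1 against shControl, and leaving out single libraries gave 1 to 2. The HNF4 targets called in shBMAL1 against shControl ranged from 2 to 4, with 2 without shBMAL1 replicate 3. In shControl, HNF4A exceeded PAX8 per kilobase by 7.41-fold by the longest transcript and 6.13-fold by all exons. With library sizes alone all tested genes had a median log2 change of 0.23 in shARNT against shControl and 60.5% of calls were higher, against 49.6%; the same setting gave 0.14 for PAX2 and 0.15 for WTAP in shARNT against shBMAL1, and 0.0331 for LOC654433 in shBMAL1 against shControl, all turned from values near 0, with WTAP then called (adjusted p = 0.0551, edgeR). Leaving out single libraries gave -0.17 to 0.0632 for PAX2, -0.0743 to 0.0175 for WTAP and -0.25 to 0.45 for LOC654433, the last value without shControl replicate 3 and then called (adjusted p = 0.0907, edgeR). Replicate numbers did not pair the samples (correlation of same-numbered deviations -0.168 to 0.167); with the replicate number as a block the factors called stayed at 5, 4 and 4, and LOC654433 was at 0.0133. Apart from the library sizes, the cause of these shifts was not tested. Depth limits WT1, EMX2 and GATA3, and GATA3 was not tested under a minimum of 50 counts.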
